A study of Homo sapiens with 8 samples.

Results

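The transcripts of 7 genes of the ankyrin and spectrin skeleton, ANK1, ANK2, ANK3, SPTAN1, SPTB, SPTBN1 and SPTBN4, were examined in A673/TR/shFEZF1 cells with and without doxycycline. These 7 genes were selected by name, out of 34788 genes whose reads could be summed, with their response to doxycycline in these libraries already known. All 7 were among the 15991 genes that passed the filter on low counts. A673 is an established Ewing sarcoma line, and A673/TR/shFEZF1 derives from 1 clone of it that makes the tetracycline repressor and carries, on a lentiviral vector, a small hairpin RNA against the transcription factor FEZF1, which doxycycline releases from repression. The cells were grown as 4 origins, the polyclonal population and its clones 3, 5 and 6. Each origin gave 1 control culture without doxycycline and 1 culture that received 1 µg/mL for 72 h, so that each group held 4 cultures, and every culture, control or treated, carried the repressor and the hairpin construct. No culture that received doxycycline without the hairpin was analysed here, so an action of the drug itself and an action of the hairpin cannot be told apart. Between 26719886 and 42422421 reads per library were assigned to transcripts.

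Ankyrins are adaptors that hold membrane proteins, such as ion channels, pumps and adhesion molecules, on the spectrin skeleton below the plasma membrane. Spectrin is built from alpha and beta chains that pair side by side and then end to end, and its ends are tied together by short actin filaments with protein 4.1 and adducin. ANK1 (ankyrin-R) and SPTB (beta-I spectrin) are best known from red blood cells, ANK2 (ankyrin-B) from axons and heart muscle, and ANK3 (ankyrin-G) and SPTBN4 (beta-IV spectrin) from the axon initial segment and the nodes of Ranvier, where sodium channels gather. SPTAN1 (alpha-II spectrin) and SPTBN1 (beta-II spectrin) are the chains found in most other cells.

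FEZF1, the target of the hairpin, was at 96.4, 70.5, 107 and 74.4 CPM in the control cultures of the polyclonal population and of clones 3, 5 and 6, and at 60.6, 43.0, 60.8 and 36.4 CPM in their doxycycline cultures. CPM are counts of a gene scaled to library size after TMM normalization, which corrects for library composition. The doxycycline cultures lay below all the controls, so the labels fit the target. The fitted log2 fold change was -0.81 with a standard error of 0.0726 (edgeR's quasi-likelihood F-test with origin as a block, adjusted p after Benjamini-Hochberg = 0.00595), and without the block the adjusted p was 0.29. The labelled cell type was also checked. All 8 of the Ewing sarcoma markers listed (CD99, NKX2-2, NR0B1, STEAP1, PRKCB, CCND1, LIPI and XG) were over 1 CPM in every library, with a sum of 3956 to 5801 CPM, led by CCND1; 4 of them were called with doxycycline, NKX2-2, NR0B1 and XG higher and LIPI lower.

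Because ANK1 and SPTB are red cell genes and the other ankyrins are neuronal, markers of erythroid cells, neurons and skeletal muscle were read beside them. Of 10 erythroid genes, HBG1 and GATA1 were at 0 in every library, 7 were under 1 CPM in every library, and the sum of 7.36 to 11.6 CPM was mostly HBB. The matched transcripts of GATA1 made up 0% of the mean of normalized counts that the authors give, so its 0 is no measure of that gene. None of the 4 erythroid genes tested was called with doxycycline (adjusted p from edgeR between 0.19 and 0.562). Of 7 neuronal genes, 4 were over 1 CPM in every library, while STMN2 and RBFOX3 were under 1 CPM in every library. The sum of the 7 was 325 to 736 CPM, led by TUBB3. For RBFOX3 the matched transcripts made up 27.3% of the authors' mean of normalized counts, so its low value covers that part alone. None of the 5 neuronal genes tested was called (adjusted p from edgeR between 0.179 and 0.866). The 5 muscle genes together reached at most 0.498 CPM, and TNNT3 and MYOD1 were at 0 in every library. In bulk RNA, fewer cells with a transcript and less of it per cell cannot be told apart.

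Levels of different genes were compared as TPM, which scales by transcript length. In the control cultures SPTBN1 was at 81.3 ± 14.9 TPM and SPTAN1 at 77.5 ± 14.3 TPM (SD, n = 4 each), and the ranges of the pair overlapped. ANK2, at 3.15 ± 0.602 TPM, was the most abundant ankyrin, 24.6-fold below SPTAN1. Next came SPTB at 0.511 ± 0.204, ANK1 at 0.497 ± 0.147, SPTBN4 at 0.405 ± 0.122 and ANK3 at 0.338 ± 0.198 TPM (SD, n = 4 each). ANK2 was 6.16-fold above SPTB without overlap, whereas the 4 genes at the bottom of the order overlapped with their neighbours and could not be ranked. Of the spectrin chains among the 7 genes, the alpha-II and beta-II chains thus had the highest levels in these cells.

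**Figure D1:**
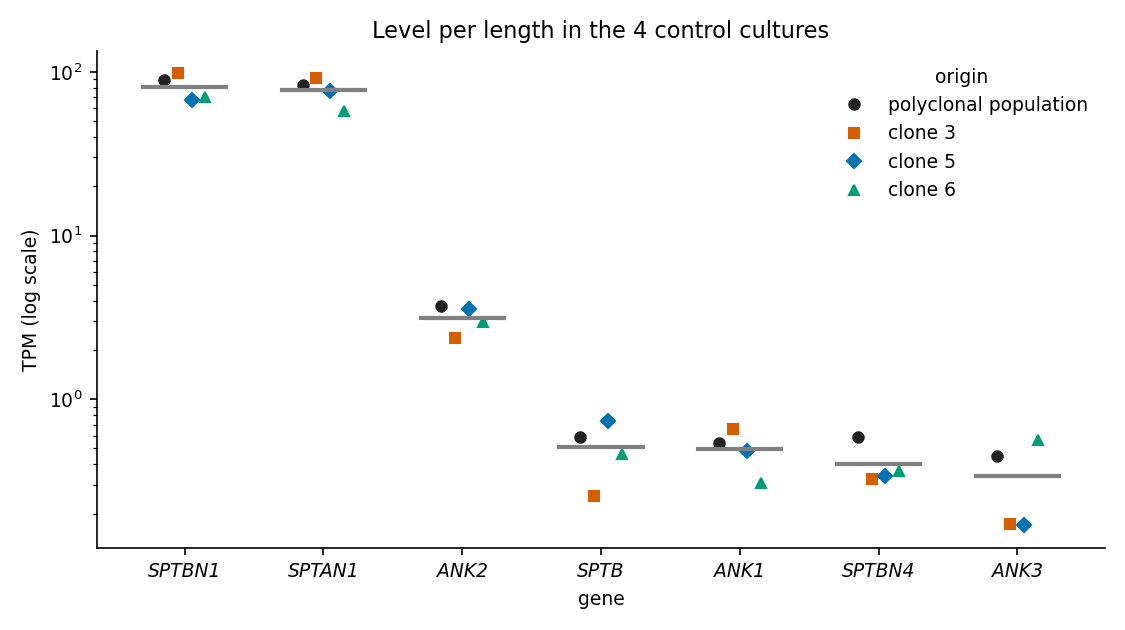
Level per length (TPM, log axis) of the 7 genes in the 4 control cultures, each origin with its own symbol and grey lines at the mean. SPTBN1 and SPTAN1 stand at 81.3 and 77.5 TPM, ANK2 at 3.15 TPM, and SPTB, ANK1, SPTBN4 and ANK3 lie below 1 TPM with overlapping values.

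ANK1 lies on chromosome 8 of GRCh38.p14 from 41653225 to 41896741. It was at 1.72, 2.52, 1.31 and 1.13 CPM in the control cultures of the polyclonal population and of clones 3, 5 and 6, from 68, 80, 36 and 28 reads. In the doxycycline cultures it was at 1.04 CPM in the polyclonal population and 0.332 CPM in clone 5, from 34 and 10 reads, and it had 0 reads in clones 3 and 6. ANK1 was thus lower in 4 of 4 pairs, and no doxycycline culture reached the lowest control. A count of 0 allows up to 3 reads per library, or 0.0872 CPM in clone 3 and 0.126 CPM in clone 6. Over the matched transcripts the control values of these 2 clones were 28.9-fold and 8.92-fold above these limits. The counting error of the control counts, 80 and 28 reads, is not included, so the folds are not lower bounds. These limits do not cover ANK1 transcripts that could not be matched, and so are no bound for the whole gene. The polyclonal population kept 0.607 of its control value. The means were 1.67 ± 0.620 CPM in the controls and 0.344 ± 0.492 CPM with doxycycline (SD, n = 4 each), and the fitted log2 fold change was -2.68 with a standard error of 0.865.

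ANK2, on chromosome 4 from 112705622 to 113383736, was at 17.5, 10.8, 17.7 and 17.5 CPM in the controls and at 24.8, 13.3, 15.3 and 20.9 CPM in the matching doxycycline cultures. It was higher with doxycycline in 3 of 4 pairs and lower in clone 5, and the groups overlapped. Its mean was 15.9 ± 3.39 CPM without and 18.6 ± 5.26 CPM with doxycycline (SD, n = 4 each), with a log2 fold change of 0.22 and a standard error of 0.122. ANK3, on chromosome 10 from 60026298 to 60733528, was at 2.05, 0.756, 0.871 and 2.57 CPM in the controls and at 3.41, 1.63, 1.10 and 3.03 CPM with doxycycline, from 24 to 111 reads per library. It was higher in 4 of 4 pairs, but the cultures without doxycycline of the polyclonal population and of clone 6 lay above the treated cultures of clones 3 and 5, so the groups overlapped. The ANK3 mean was 1.56 ± 0.892 CPM in the controls and 2.29 ± 1.10 CPM with doxycycline (SD, n = 4 each), with a log2 fold change of 0.60 and a standard error of 0.218.

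**Figure D2:**
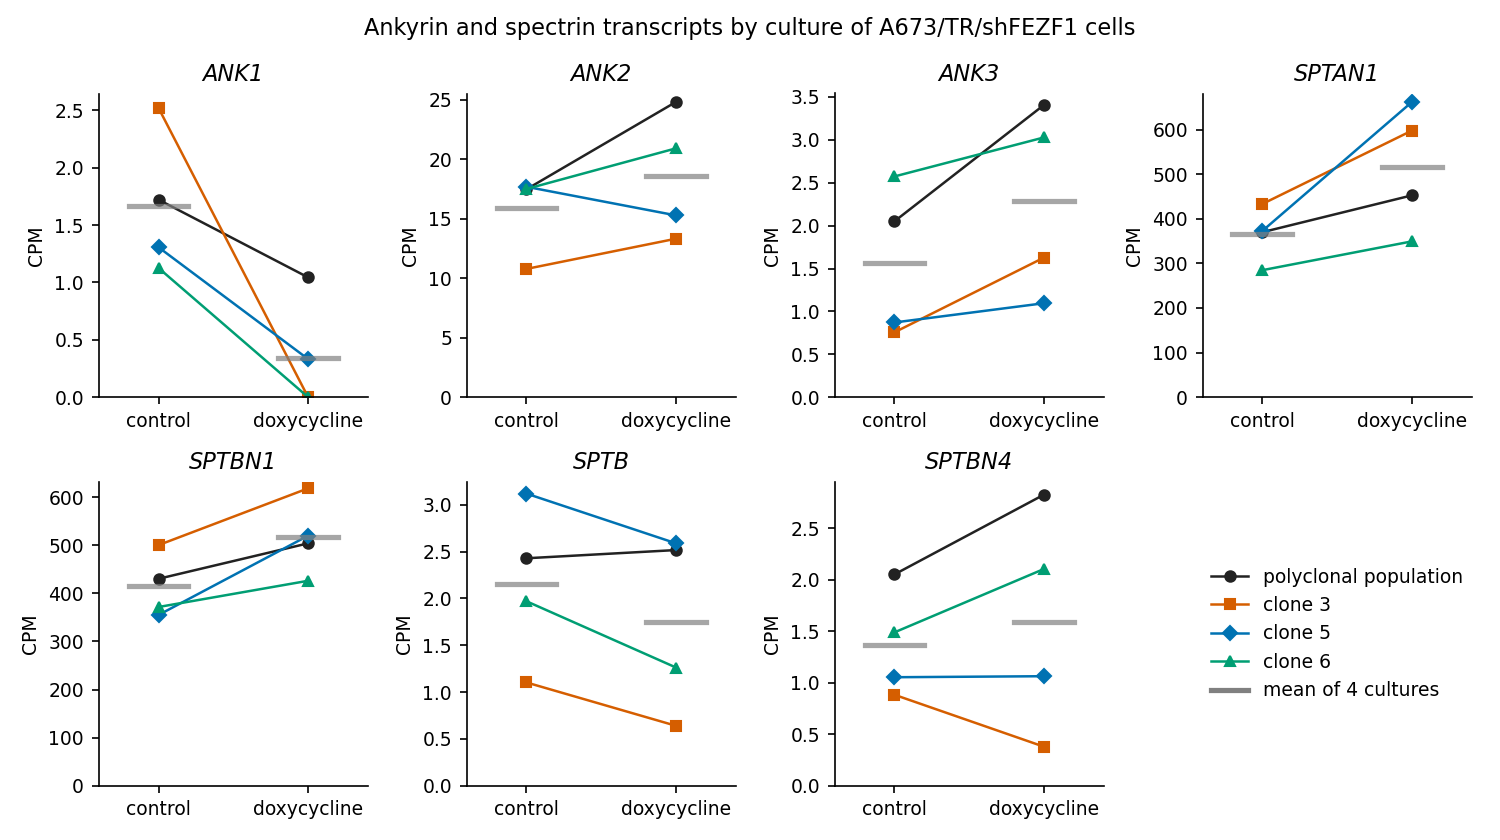
CPM of the 7 genes in each culture, control on the left and doxycycline on the right of each panel, with lines joining the 2 cultures of an origin and grey bars at the mean of 4 cultures. ANK1 is lower in 4 of 4 pairs, with 0 reads in the doxycycline cultures of clones 3 and 6, while ANK3, SPTAN1 and SPTBN1 are higher in 4 of 4 pairs.

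Set against the other ankyrins within a library, ANK1 had the smaller share in the doxycycline culture of every pair. Its share of the summed TPM of the 3 ankyrins was 11.5%, 20.6%, 11.5% and 8.04% in the controls and 3.84%, 0%, 5.41% and 0% with doxycycline. ANK2 supplied 74.1% to 88.6% of the sum and had a larger share with doxycycline in each pair. The log2 ratio of ANK1 to ANK2 (CPM, pseudocount of 0.5 reads) differed between the 2 cultures of an origin by -1.22 in the polyclonal population and -1.72 in clone 5, where ANK1 had reads in both. The ratio of ANK1 to ANK3 differed by -1.44 and -2.25 in the same origins. In clones 3 and 6 the size of the ratio is set by the pseudocount, since ANK1 was at 0 in their doxycycline cultures.

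**Figure D3:**
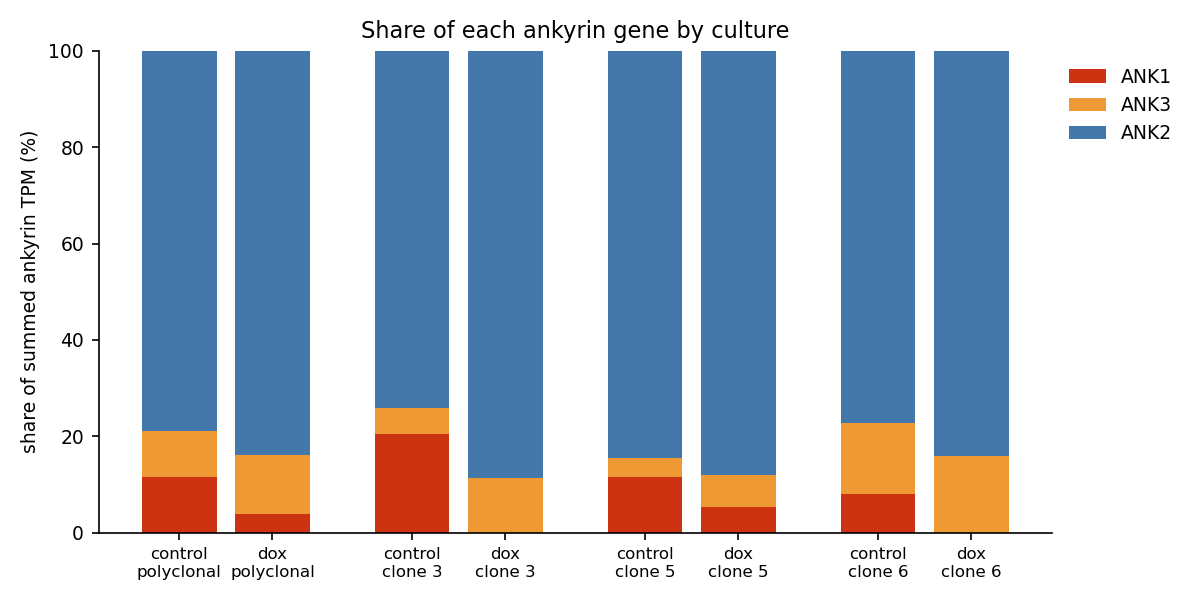
Share (%) of ANK1, ANK3 and ANK2 in their summed TPM over the matched transcripts, 1 bar per culture, in pairs of control and doxycycline (dox). ANK1 has 8.04% to 20.6% of the sum in the controls and 0% to 5.41% with doxycycline.

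Not all ankyrin reads could be assigned to a symbol, because no predicted RefSeq transcript of the 3 genes could be matched. The authors also deposited the mean of normalized counts of each gene over the 8 libraries, and the matched transcripts made up 69.9% of that mean for ANK1, 81.1% for ANK2 and 46.1% for ANK3. They made up 99.1% for SPTAN1, 98.6% for SPTB, 94.9% for SPTBN1 and 101% for SPTBN4, and the median over 11468 genes with a mean above 100 was 98.9%. The TPM of the 3 ankyrins and their shares of the sum thus cover unlike parts of each gene. For ANK1 the ratio of doxycycline to control was 0.203 from the matched reads, 0.720 if all the unmatched reads had been in the doxycycline cultures and 0.134 if all had been in the controls. It was below 1 in each case. The same limits ran from 0.773 to 1.67 for ANK2 and from 0.376 to 4.33 for ANK3, so the direction of these genes as a whole was not fixed by the reads that could be matched.

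By transcript, the ANK1 reads of the controls came from 3 curated forms. NM_020477.3 (7746 bases) had 0, 55.8, 17.2 and 22.5 estimated reads in the controls of the polyclonal population and of clones 3, 5 and 6. NM_001142445.2, a shorter form of 3224 bases, had 19.1, 12.8, 18.8 and 5.9 reads, and NM_020476.3 (8232 bases) had 48.9, 11.4, 0 and 0. All 3 forms were at 0 in the 4 doxycycline cultures. The 34.0 reads of the polyclonal population with doxycycline were all given to NM_020475.3, which had none in any other library. Salmon divides reads among forms that share exons, and with at most 80 reads per library the choice among the long forms is not precise.

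For ANK2, 49 curated transcripts shared 342 to 808 reads per library. The longest, NM_001148.6, has 14215 bases, against 8643 bases for the next. In the GENCODE annotation (release 44) the reference transcript of ANK2 has the same length and holds an internal exon of 6255 bases on chromosome 4 from 113353045 to 113359299, the giant exon that is known from neurons, where it makes the large axonal form of ankyrin-B. NM_001148.6 had 57.3, 0, 0 and 141 reads in the controls and 164, 131, 98.6 and 166 reads with doxycycline, in the order polyclonal population, clones 3, 5 and 6. It thus had reads in 4 of 4 doxycycline cultures and in 2 of 4 controls, and it was higher with doxycycline in every pair. Its share of the ANK2 reads was 8.31%, 0%, 0% and 32.5% in the controls and 20.3%, 28.6%, 21.4% and 33.4% with doxycycline, so that clone 6 differed little. These values cover the matched forms alone: on average 120 normalized counts of ANK2 per library were not matched, and whether predicted forms with the giant exon held some of them, in the controls too, was not tested. Among forms of ordinary length, NM_001354266.1 (8009 bases) had 396, 0, 259 and 82.3 reads in the controls and 128, 0, 0 and 0 with doxycycline, whereas NM_001354249.1 (8192 bases), the most abundant form, had 72.2 to 342 reads in all 8 libraries.

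The corresponding giant transcript of ANK3, NM_020987.5 with 17019 bases, was at 0 in all 8 libraries. Its exon of 7812 bases lies on chromosome 10 from 60068637 to 60076448 and encodes the part that marks the large ankyrin-G of the axon initial segment. The ANK3 reads came from shorter forms. NM_001149.3 (7218 bases) led in 5 of 8 libraries and had 46.8, 23.7, 9.1 and 59.9 reads in the controls and 43.0, 46.0, 16.1 and 68.9 with doxycycline. Relative to the assigned reads it was higher with doxycycline in 4 of 4 pairs. NM_001204403.2 (9343 bases) led in the polyclonal population with doxycycline, with 68.3 reads, and in the clone 5 control, with 15.3 reads, and NM_001204404.2 (9584 bases) led in clone 5 with doxycycline, with 17.3 reads. Predicted forms that carry a giant exon, if any, were not among the matched transcripts.

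**Figure D4:**
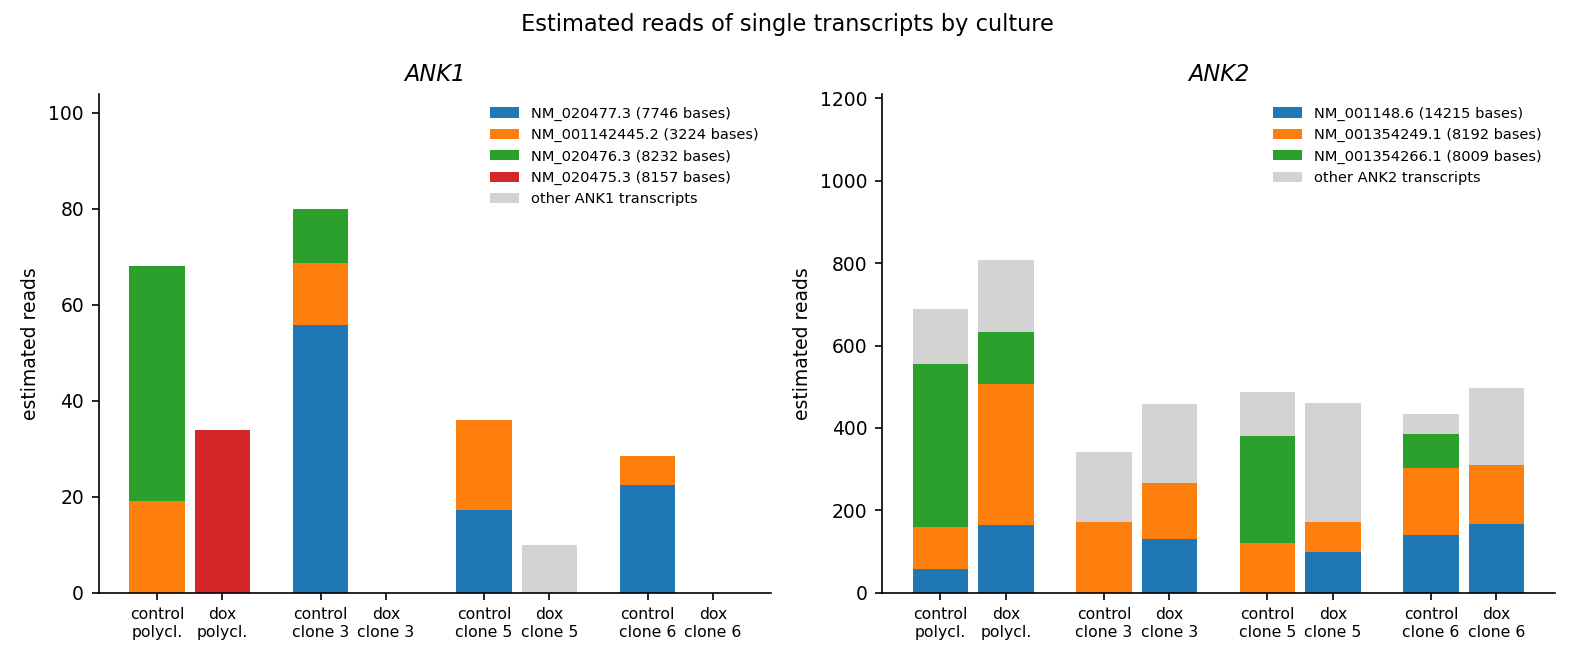
Estimated reads of single transcripts of ANK1 (left) and ANK2 (right) in each culture, stacked, with control and doxycycline (dox) side by side for each origin and other transcripts in grey. The 3 ANK1 forms of the controls are at 0 with doxycycline, and the giant ANK2 transcript of 14215 bases has 98.6 to 166 reads in the 4 doxycycline cultures but 0 in the controls of clones 3 and 5.

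SPTAN1, which encodes the alpha-II chain, lies on chromosome 9 from 128552587 to 128633662. It was at 370, 433, 373 and 285 CPM in the controls of the polyclonal population and of clones 3, 5 and 6, and at 453, 598, 662 and 349 CPM with doxycycline. SPTBN1, its beta-II partner on chromosome 2 from 54456327 to 54671446, was at 430, 500, 355 and 372 CPM in the controls and at 504, 619, 520 and 426 CPM with doxycycline. Both were higher in 4 of 4 pairs, most in clone 5, and in both the groups overlapped because clone 6 with doxycycline stayed below clone 3 without it. Controls averaged 365 ± 61.0 and doxycycline cultures 515 ± 141 CPM for SPTAN1, and 414 ± 65.8 and 517 ± 79.0 CPM for SPTBN1 (SD, n = 4 each). The log2 fold changes were 0.47 (standard error 0.0913) and 0.32 (standard error 0.0675). Unmatched reads could not reverse them: the ratio of doxycycline to control stayed between 1.36 and 1.42 for SPTAN1 and between 1.10 and 1.35 for SPTBN1.

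The chains of the heterodimer were at similar levels per length, with somewhat more SPTAN1 relative to SPTBN1 in the doxycycline culture of each pair. The ratio of SPTAN1 to SPTBN1 TPM was 0.930, 0.935, 1.14 and 0.831 in the controls and 0.973, 1.04, 1.38 and 0.887 with doxycycline. Clone 5 had the highest ratio in both groups and clone 6 the lowest. Most SPTBN1 reads, 81.3% to 86.4% per library, were given to 1 predicted transcript, XM_005264517.2 (8359 bases), which was higher with doxycycline in 4 of 4 pairs. Of SPTAN1, NM_001195532.2 (7800 bases) led in all 8 libraries with 52.3% to 73.9% of the reads and was higher in 4 of 4 pairs. NM_003127.4 (7860 bases) was higher in the 3 clones and lower in the polyclonal population, where it had 5543 reads in the control and 3027 with doxycycline.

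Since the SPTAN1 and SPTBN1 transcripts pair in 1 protein and were both higher in every pair of cultures, their promoters are shown, as RefSeq gives them on GRCh38.p14, from 250 bases before the transcription start to 50 after it. Capitals mark GGGCGG, the GC box known to bind SP1, and TATAAA, on either strand. SPTAN1 is at chr9:128552337-128552636, and RefSeq lists a pair of starts for SPTBN1, the upstream one at chr2:54456077-54456376 and the downstream one at chr2:54558133-54558432, all on the plus strand.
SPTAN1: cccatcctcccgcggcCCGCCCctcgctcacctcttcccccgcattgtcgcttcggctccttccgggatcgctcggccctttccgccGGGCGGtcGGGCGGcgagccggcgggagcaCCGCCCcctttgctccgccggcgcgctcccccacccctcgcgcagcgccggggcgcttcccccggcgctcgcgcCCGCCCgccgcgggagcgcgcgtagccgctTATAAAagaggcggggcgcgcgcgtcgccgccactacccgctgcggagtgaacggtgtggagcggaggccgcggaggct
SPTBN1 upstream start: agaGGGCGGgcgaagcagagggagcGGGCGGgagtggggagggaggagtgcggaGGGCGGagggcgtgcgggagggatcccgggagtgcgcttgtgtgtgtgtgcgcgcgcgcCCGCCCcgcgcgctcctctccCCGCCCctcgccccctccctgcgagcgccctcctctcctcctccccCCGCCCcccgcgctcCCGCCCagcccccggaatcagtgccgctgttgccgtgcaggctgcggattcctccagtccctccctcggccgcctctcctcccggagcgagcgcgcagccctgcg
SPTBN1 downstream start: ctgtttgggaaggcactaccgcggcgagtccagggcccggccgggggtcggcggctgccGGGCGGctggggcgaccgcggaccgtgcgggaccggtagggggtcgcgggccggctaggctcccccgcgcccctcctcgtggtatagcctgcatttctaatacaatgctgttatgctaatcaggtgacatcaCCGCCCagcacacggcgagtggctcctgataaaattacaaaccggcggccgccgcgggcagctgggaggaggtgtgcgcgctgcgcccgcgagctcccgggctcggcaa

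The SPTAN1 window held GGGCGG 5 times and TATAAA once, and the SPTBN1 windows held GGGCGG 7 times upstream and 2 times downstream and no TATAAA. Over 35116 promoters of the same length, 45.0% had GGGCGG and 11.5% had TATAAA. The GC content was 78.0% for SPTAN1 and 77.3% and 69.7% for SPTBN1, against a median of 58.7%. GGAAGGAA, a tandem pair of the GGAA repeats to which EWSR1-FLI1 binds, was in none of the windows of ANK2, ANK3, SPTAN1, SPTB, SPTBN1 or SPTBN4 on either strand, and 3.67% of all promoters had it. The ANK1 promoter was not analysed here. These matches are descriptions of letters and were not tested as sites.

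SPTB (chromosome 14, 64746283 to 64879907) and SPTBN4 (chromosome 19, 40467001 to 40576464) had few reads, 22 to 96 and 13 to 92 per library. SPTB was at 2.43, 1.10, 3.12 and 1.97 CPM in the controls and at 2.52, 0.640, 2.59 and 1.26 CPM with doxycycline. It was lower in the 3 clones and nearly level in the polyclonal population, with means of 2.16 ± 0.847 and 1.75 ± 0.960 CPM (SD, n = 4 each) and a log2 fold change of -0.38 (standard error 0.214). SPTBN4 was at 2.05, 0.882, 1.05 and 1.49 CPM in the controls and at 2.82, 0.378, 1.06 and 2.10 CPM with doxycycline. Its values went up in the polyclonal population and clone 6, down in clone 3 and stayed level in clone 5, so that no direction was shared and the log2 fold change was 0.02 (standard error 0.314). SPTBN5, another beta chain, had a log2 fold change of -1.11 and was not called (Benjamini-Hochberg adjusted p from edgeR's quasi-likelihood test = 0.429). It was lower in 3 pairs and higher in 1, and in the polyclonal population it had 64 reads in the control and 0 with doxycycline. Its matched transcripts made up 52.9% of the authors' mean of normalized counts.

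Of all 15991 genes, 1219 (7.62%) were called with doxycycline, 595 higher (3.72%) and 624 lower (3.9%), by edgeR's quasi-likelihood test with origin as a block at a Benjamini-Hochberg adjusted p under 0.05. Among the 7 genes SPTAN1 and SPTBN1 were called. Without the block, 1 gene in all (0.00625%) and 0 of the 7 were called by the same test, with 1155 genes and 2 of the 7 at an unadjusted p under 0.05. DESeq2 without the block called 232 genes (1.45%) and 0 of the 7, with 2 of them at an unadjusted p under 0.05. The cultures moved in 1 direction in 4 of 4 pairs for 4 of the 7 genes and for 33.3% of all genes, and the groups did not overlap for ANK1 and for 4.95% of all genes. Since the 7 genes were chosen with this contrast known, these counts describe them and nothing is read from them. Their median log2 fold change was 0.22, beside 0.0042 for all genes tested, for which the middle of the distribution ran from -0.16 to 0.15 (interquartile range).

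Whether the genes differed among the polyclonal population and the 3 clones was a question the choice of genes did not use. In the same fit, 39.4% of all genes differed between origins, and 6 of the 7 did, all but ANK1 (Benjamini-Hochberg adjusted p from edgeR's quasi-likelihood test = 0.463). The smallest adjusted p was that of ANK3 (0.0128 by the same test), which was lower in clones 3 and 5 than in the polyclonal population and clone 6 in both groups. SPTB (adjusted p = 0.0143) and SPTBN4 (0.0336) were lowest in clone 3 in both groups, and so was ANK2 (0.0308), all by edgeR's quasi-likelihood test. SPTAN1 (adjusted p = 0.0149) was lowest in clone 6 in both groups, and SPTBN1 (0.0224) was highest in clone 3 in both groups by the same test. With curated transcripts alone 3 of the 7 differed, against 27.1% of all genes, and 3 to 5 did when 1 origin was left out, against 18% to 33.5% of all genes. Each origin was 1 pair of cultures, so a difference between clones and a difference between pairs of cultures cannot be told apart.

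Across the 8 libraries the log2 CPM of SPTAN1 and SPTBN1 had a Pearson correlation of 0.84. The genes whose pattern was most like that of ANK1 were BSN (r = 0.98), XPO7 (0.98) and MCTP2 (0.96). For ANK2 they were NPAS1 (0.99), CFD (0.98) and RWDD2A (0.97), and for ANK3 FGFR3 (0.98), HSPA2 (0.98) and TP53TG1 (0.96). The 8 libraries come from 4 origins and 15991 genes were searched, so these values are descriptions.

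The other genes of the skeleton were followed in 5 lists of 51 genes, written from knowledge of the complex but with earlier results of these data known, of which 42 passed the filter. With doxycycline 7 of the 42 (16.7%) were called, 4 higher and 3 lower, against 7.62% of all genes, a description and not independent evidence, and their median log2 fold change was -0.0049. Without the block 0 of the 42 were called by edgeR, with 5 at an unadjusted p under 0.05, and DESeq2 without the block called CSNK2A2 and MAPRE3. Leaving out clone 5 or clone 6 also left 0 called by edgeR, with 17 at an unadjusted p under 0.05 in each case, leaving out clone 3 left 2 and leaving out the polyclonal population left 3.

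At the junction of spectrin with actin, 3 of 12 genes were called. EPB41L1, the neuronal protein 4.1, was at 4.91, 2.61, 7.26 and 6.68 CPM in the controls and at 13.6, 6.34, 9.69 and 9.63 CPM with doxycycline. Its matched reads rose in 4 of 4 pairs by 0.92 on the log2 scale (standard error 0.202; Benjamini-Hochberg adjusted p from edgeR = 0.0385). They made up 51.5% of the authors' mean, and the ratio of doxycycline to control would be 0.497 if all the unmatched reads had been in the controls, so the direction of the whole gene was not fixed. TPM3, a tropomyosin of short actin filaments, rose from 703 ± 45.7 to 839 ± 47.0 CPM (SD, n = 4 each; adjusted p = 0.032 by the same test in edgeR). EPB41L2, the widely expressed protein 4.1G, decreased from 368 ± 93.2 to 310 ± 83.5 CPM and was lower in 4 of 4 pairs (log2 fold change -0.25; adjusted p = 0.0296 by edgeR). EPB41 itself, the red cell type protein 4.1, was at 457, 379, 372 and 481 TPM in the controls and 457, 389, 396 and 449 TPM with doxycycline, above SPTAN1 and SPTBN1 in every culture. It was higher in 2 pairs and lower in 2 (adjusted p from edgeR = 0.992). The adducin genes ADD1, ADD2 and ADD3 were not called.

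Among the membrane proteins that ankyrins bind, 2 of 13 were called, both lower. NRCAM, a neuronal adhesion molecule that ankyrin-G anchors at the initial segment, was at 53.9, 54.2, 30.7 and 70.4 CPM in the controls and at 42.0, 43.6, 25.1 and 45.4 CPM with doxycycline (log2 fold change -0.40, standard error 0.0751; Benjamini-Hochberg adjusted p from edgeR = 0.0241). It was lower in 4 of 4 pairs, with overlapping groups. The voltage-gated channels of the list that passed the filter were not called, although SCN2A and SCN8A were lower in 4 of 4 pairs. SCN8A, a sodium channel of the nodes, was at 7.26 ± 1.77 and 5.07 ± 1.53 CPM (adjusted p = 0.101 by edgeR). NFASC and the remaining 5 genes of this list did not pass the filter.

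Of the 10 genes of the axon initial segment and node, 2 were called higher from their matched reads. MAPRE3, the microtubule end-binding protein EB3, was at 13.7, 13.8, 14.2 and 12.2 CPM in the controls and at 20.2, 18.5, 19.6 and 17.4 CPM with doxycycline, without overlap (log2 fold change 0.49, standard error 0.0803; Benjamini-Hochberg adjusted p from edgeR = 0.0171). CSNK2A2, a catalytic subunit of the kinase CK2 that phosphorylates ankyrin-binding sites of sodium channels, was called higher, from 36.8 ± 0.675 to 47.7 ± 5.12 CPM (SD, n = 4 each), also without overlap (adjusted p = 0.0303 by edgeR). MAPRE1, which encodes the related end-binding protein EB1, was at 327 ± 14.1 and 285 ± 17.9 CPM and was lower in 4 of 4 pairs (SD, n = 4 each; log2 fold change -0.20; adjusted p = 0.0593 by edgeR, and called by DESeq2 with the block at 0.00339). The other catalytic subunit gene of CK2, CSNK2A1, was at 257 ± 7.60 and 256 ± 5.02 CPM. Matched transcripts made up 72.3% of the authors' mean for MAPRE3 and 76.3% for CSNK2A2. With all the unmatched reads in the controls the ratios of doxycycline to control would be 0.726 and 0.750, so the direction of these 2 genes as a whole was not fixed. None of the 5 genes for spectrin-cleaving proteases and their inhibitor was called, with log2 fold changes between 0.02 and 0.22; the largest was that of CAST, the calpain inhibitor (adjusted p from edgeR = 0.054), which DESeq2 with the block called.

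**Figure D5:**
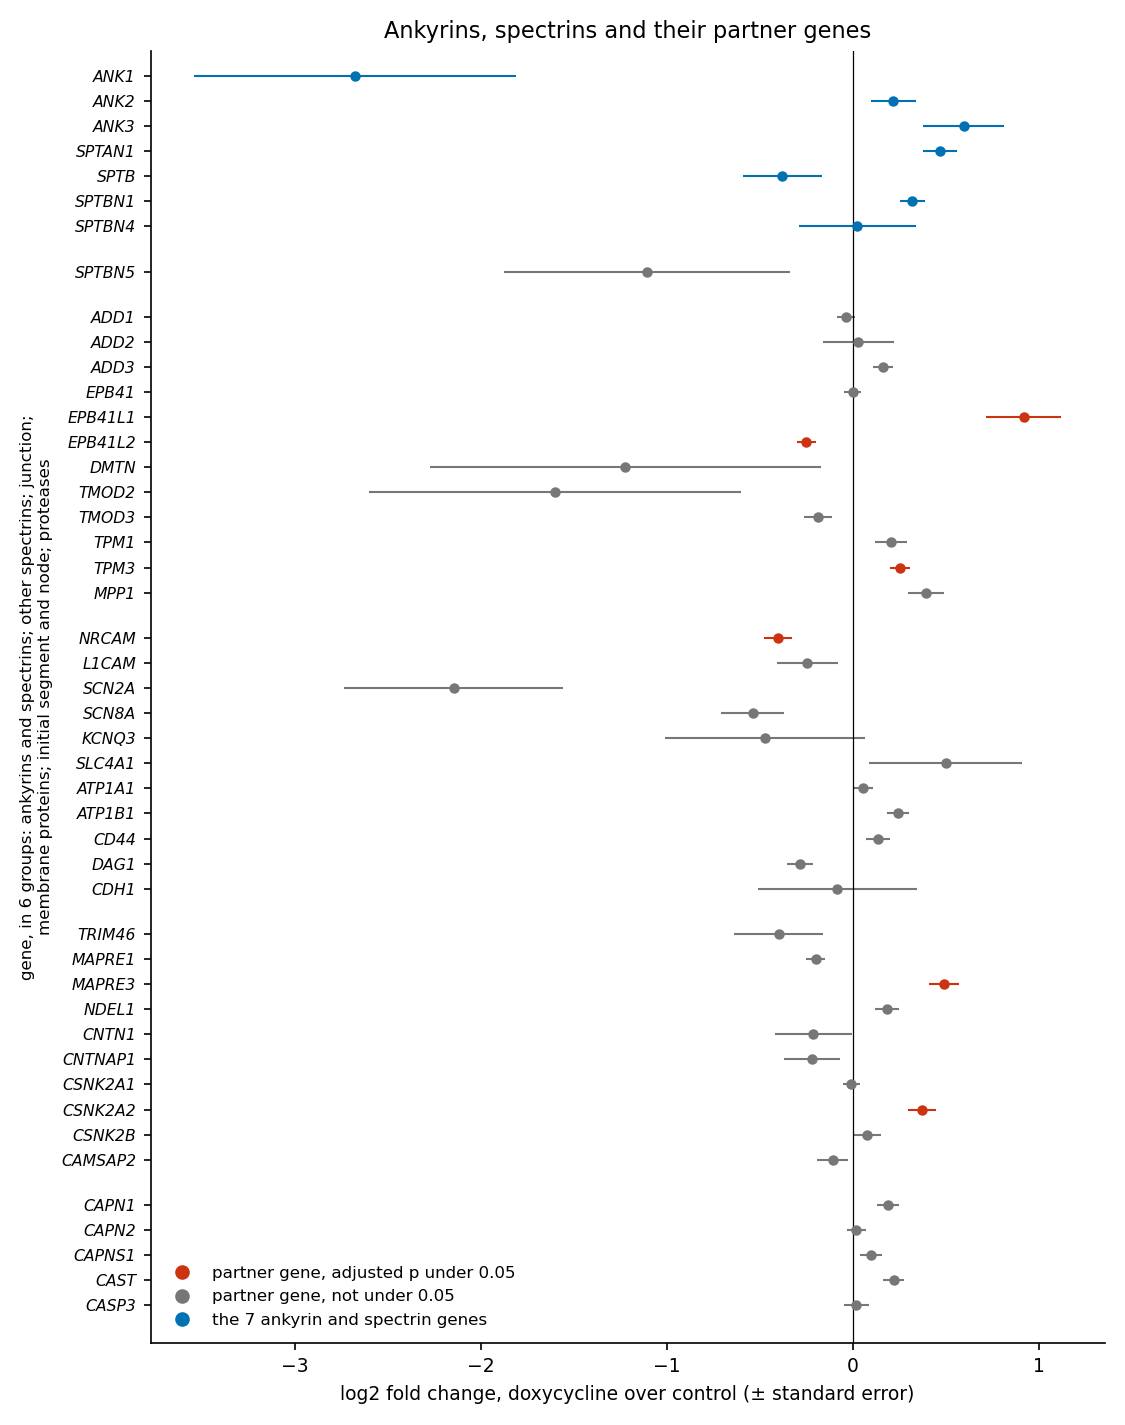
Log2 fold change of doxycycline over control with its standard error for the 7 ankyrin and spectrin genes (blue) and 39 of the 42 partner genes tested, red where the adjusted p was under 0.05. ANK1 is at -2.68 with a standard error of 0.865, and the partner genes drawn in red lie between -0.40 (NRCAM) and 0.92 (EPB41L1).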

How the data were processed

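RNA of 8 cultures (4 control, 4 doxycycline) was sequenced. For each library the authors ran Salmon on RefSeq transcripts of GRCh38 and deposited the estimated counts and the TPM of 158867 transcripts. The authors also deposited a gene table made with DESeq2 (2.11.40.6 per the labels), of which only the mean of normalized counts (a signal) was used, as a check on completeness. Its columns of fold changes and p-values were not used. Whether Salmon used read strand is not given in the sources used here. The control file of clone 5 lists the transcripts in another order and with more decimals than the other 7.

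Transcripts were matched to symbols by RefSeq accession (115319, or 72.6%; 99.2% of curated and 50.3% of predicted ones), which kept 89.9% to 91.1% of the reads. Estimated counts were summed per gene, rounded, filtered (filterByExpr), normalized by TMM and tested with the quasi-likelihood test of edgeR 4.0.16 in R 4.3.3 with origin as a replicate block, adjusted by Benjamini-Hochberg over 15991 genes. The block follows the pairing by origin: deviations of the 2 cultures of 1 origin from their group means correlated with r = 0.406 (polyclonal population), 0.546, 0.59 and 0.582 (clones 3, 5 and 6), and those of different origins with -0.395 to 0.179. The labels do not give separate cultures beyond 1 per origin and group. With the block, p-values rest on how the difference between the 2 cultures of an origin varied among the 4 origins. A spread between cultures of the same origin and group could not be measured. TPM were summed per gene for levels only. In the values of single transcripts, estimated counts under 0.5 were set to 0, which was not done for the gene sums. Python 3.11.15 with pandas 2.3.3 was used, and the fit was tested on simulated data.

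The 7 genes, their partner and marker lists and the tests were chosen with earlier results of these data known. Named are the 7 genes, FEZF1, listed genes, the 3 most abundant transcripts of each ankyrin and the 3 genes most correlated with each ankyrin. Of SPTAN1 and SPTBN1 only some of the 3 most abundant transcripts are named, and of SPTB and SPTBN4 none. A few further genes and transcripts (the giant forms, NM_020475.3, EPB41, SCN8A, MAPRE1, CSNK2A1) were picked from these lists after their values were seen. Some listed genes count in the totals but their single values are not reported here. Alternatives were no block, DESeq2 1.42.0 with and without it, DESeq2 size factors, filters at 1 and 10 counts, curated transcripts alone, a pseudocount of 2, levels from effective lengths and leaving out each origin.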

Additional observations from a re-analysis of the deposited data

Results flagged for a closer look

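ANK2 in the control culture of clone 3 stood apart from the other controls. It was at 10.775 CPM, while the polyclonal population and clones 5 and 6 were between 17.465 and 17.673 CPM. With doxycycline clone 3 was again the lowest, at 13.3 CPM. Of 16 groups of 4 cultures examined in this way this was the 1 group with a value so far from the others, and chance would give 0.8.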

How the results depend on the processing

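The number of genes called with doxycycline, 1219, depended most on the block: it was 1 with no replicate block, 1920 by DESeq2 with the block, 232 by DESeq2 without it, 493 with curated transcripts alone and 175 to 699 with 1 origin left out. Of the 7 genes, 2 were called, against 0 with no replicate block, 0 by DESeq2 without it, 0 with curated transcripts and 0 to 1 with 1 origin left out (SPTAN1 without the polyclonal population). Partner calls, 7, became 0 with no replicate block, 13 by DESeq2 with the block, 2 by DESeq2 without it, 11 and 13 with filters at 1 and 10 counts, 2 with curated transcripts and 0 to 3 with 1 origin left out. Genes that differed between origins, 6298, became 4053 with curated transcripts and 2964 to 5299 with 1 origin left out, and those among the 7 went from 6 to 3, and to 3 to 5. The log2 fold change kept its sign in all alternatives run for ANK1 (-4.33 to -1.86), ANK2, ANK3, SPTAN1, SPTB and SPTBN1, and was from -0.17 to 0.49 for SPTBN4. ANK1 was called only with the filter at 1 count, and the filter at 10 counts in every library removed it. With a pseudocount of 2 the mean log2 ratio of ANK1 to ANK2 differed by -3.16 and that of ANK1 to ANK3 by -3.52, against -4.18 and -4.56. With 1 origin left out these differences ran from -5.16 to -2.99 and from -5.60 to -3.23. The means include clones 3 and 6, where the pseudocount sets the size of the ratio. Other normalizations, filters and DESeq2 do not enter a ratio within a library and were not run for it. Levels from effective lengths moved by less than 1 SD. The cause of these changes was not tested. At 0 to 111 reads per library, single transcripts and small changes of ANK1 and ANK3 were not resolved.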
